A study of Mus musculus with 26 samples.

Results

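The genes described here encode the proteasome of the mouse spleen. They are the protein-coding genes whose symbol begins with Psm, one of the letters a to g and a digit, leaving out the immunoproteasome genes Psmb8, Psmb9 and Psmb10. That rule matched 48 of 56392 genes, of which 21885 are protein-coding. By role they are 7 genes of the alpha ring and 7 of the beta ring of the 20S core particle, 6 ATPase and 11 non-ATPase genes of the 19S regulatory particle, 3 chaperones that assemble the 19S particle (Psmd5, Psmd9 and Psmd10) and 4 that assemble the core (Psmg1 to Psmg4). A further 6 encode activator or inhibitor caps, and 2 encode core subunits restricted to other tissues (Psma8 and Psmb11). The last 2, Psmc3ip and Psme3ip1, were matched by name only: the first encodes a DNA recombination factor and the second a protein that binds Psme3. All groups were female BALB/c mice aged 8 weeks, 20 per group per the labels, and poly(A) RNA of the spleen was sequenced in 26 libraries. Saline was injected into the peritoneum in the control group (code CT, 5 libraries). Ovalbumin (OVA), the chief protein of egg white and a common model allergen, was injected there at 0.05 mg per day on days 1, 3 and 5 in codes OS (6 libraries) and ON (5 libraries). Codes MM and MN (5 libraries each) received the same OVA and, on day 3, a synthetic copy (mimic) of miR-676-3p at 7 mg per kg into the tail vein. The labels define neither what separates OS from ON or MM from MN, nor whether each library is 1 mouse, so p-values measure the spread between these libraries, which may be technical.

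The proteasome degrades proteins tagged with ubiquitin. Its core is a barrel of stacked alpha and beta rings with the protease sites inside, and the regulatory particle at its ends binds ubiquitin chains, removes them and unfolds the substrate with a ring of ATPases. Interferon-gamma induces replacement beta subunits, the immunoproteasome, and a cap made of Psme1 and Psme2, and both are known for producing peptides that MHC class I presents.

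Transcription of proteasome genes is known to be raised through antioxidant-response-like elements when the proteasome is inhibited, so promoter sequence is shown for members the results turn on. RefSeq (GRCm38.p6) gave a promoter window, 250 bases before to 50 after the start, for 40 of the 48 members. Those without one were Psma8, Psmb1, Psmb2, Psmb7, Psmc3, Psmd3, Psmd7 and Psmg2. The 100 bases before the start are printed 5′ to 3′ for Psma5, Psmg4 and Psme2, the members called in the comparison of OVA with saline, and for Psmb5, Psmb6 and Psmc1, whose differences were among the larger ones of the core and the ATPases. Capitals mark the antioxidant-type motif TGACNNNGC, the CCAAT box, the GC box GGGCGG, the ETS-type motif CCGGAAG or a pair of GAAA with any 2 bases between them, on either strand. RefSeq lists 2 starts for Psme2, and the upstream one was used.
Psma5 (chr3:108256826-108256925, +): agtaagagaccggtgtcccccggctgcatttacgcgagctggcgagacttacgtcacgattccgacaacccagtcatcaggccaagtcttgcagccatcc
Psmg4 (chr13:34162864-34162963, +): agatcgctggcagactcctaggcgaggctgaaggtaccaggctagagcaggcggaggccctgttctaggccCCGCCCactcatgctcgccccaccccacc
Psme2 (chr14:55591102-55591201, -): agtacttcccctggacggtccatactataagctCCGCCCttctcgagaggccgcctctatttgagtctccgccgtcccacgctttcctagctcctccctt
Psmb5 (chr14:54617996-54618095, -): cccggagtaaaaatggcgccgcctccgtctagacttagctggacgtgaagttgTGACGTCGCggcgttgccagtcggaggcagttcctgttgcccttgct
Psmb6 (chr11:70525257-70525356, +): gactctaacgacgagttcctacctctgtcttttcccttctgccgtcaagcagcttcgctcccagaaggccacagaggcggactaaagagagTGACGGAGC
Psmc1 (chr12:100110102-100110201, +): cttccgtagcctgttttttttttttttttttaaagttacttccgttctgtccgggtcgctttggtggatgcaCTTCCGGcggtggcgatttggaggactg
The mature microRNA that the mimic copies is shown with its seed, bases 2 to 8, in capitals, from RefSeq (GRCm38.p6).
mmu-miR-676-3p (chrX:100381151-100381171, +): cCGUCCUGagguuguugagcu

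Over the whole window of both strands, CCGGAAG, the core of the ETS family motif, was in 16 of 40 member promoters (40.0%) and in 9.93% of the promoters of all 27025 genes. It was in 9 of 14 regulatory particle promoters, among them Psmc1, Psmc2, Psmc6, Psmd2 and Psmd4, and in 1 of 11 core promoters (Psma6). GGGCGG, the GC box, was in 23 of 40 (57.5%) against 38.2% of all. TGACNNNGC, the core of the antioxidant response element, was in 6 of 40 (15%) against 13.99%: Psmb5, Psmb6, Psmc6, Psmd9, Psmd12 and Psme4. The GAAA pair, an interferon-response-like repeat, was in 5 (12.5%) against 3.99%, among them Psme1 and Psmg4, and CCAAT was in 15 (37.5%) against 41.1%. The other motifs searched, of 10 in all, were each in at most 10.0% of member promoters: ATGGCGG (10.0% against 4.69%), TTCNNNGAA (5.0% against 9.55%), ACTACA (10.0% against 11.8%), CACGTG (10.0% against 8.09%) and TCACGTGA (2.5% against 1.12%), which contains the one before it. In the printed stretches a GC box stands before the starts of Psmg4 and Psme2, the antioxidant-type motif before those of Psmb5 and Psmb6, and the ETS motif before that of Psmc1, while the stretch of Psma5 holds no match. The share over all genes takes in every gene with a window, expressed in spleen or not, so it is not matched to the members. A match is a description of letters, not of a bound site.

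Values are FPKM, fragments scaled by gene length and an effective library size. That size was 0.712 (ON 2) to 1.12 (ON 1) times the reads recovered from the values. On a gene of 1 kilobase 1 read was worth 0.0520 to 0.0899 FPKM, in libraries of 14224832 to 18113989 reads. Members took 0.253% to 0.458% of the reads of a library, with the low in ON 2, a library with pancreatic reads. The markers of B cells and T cells were present in every library, with summed levels of 467 to 1204 and 50 to 142 FPKM. One saline library, CT 4, stands apart from the other 4: 36.7% of the genes tested were above and 40.6% below all of them, and 6.62% of its reads were mitochondrial. Of the 46 members tested, 26 were above the other saline libraries in CT 4 and 6 below, 13 and 2 of the 17 regulatory particle genes and 6 and 2 of the 14 core genes. These FPKM depend on the scaling: the effective size of CT 4 was 0.802 of its reads, against 1.00 to 1.06 in the other saline libraries. As a share of reads, its alpha ring was the lowest of saline (0.0638% against 0.0665% to 0.0803%) and its beta ring lay within the others (0.0660%). Its 19S ATPase (0.0648%) and non-ATPase (0.130%) shares were still the highest of saline. The largest ratios of CT 4 to the mean of the other saline libraries were those of Psmd1 (42.9 against 10.8 to 15.2 FPKM), Psme3 (199.98 against 65.1 to 80.7) and Psmb7 (38.8 against 14.8 to 17.2), and the lowest among the core and regulatory genes was that of Psmb5 (18.7 against 40.1 to 56.7). CT 4 also had the highest summed proliferation markers, 1024 FPKM against a saline median of 326. Pancreatic transcripts made up 29.3% of the reads of ON 2, 14.8% of MM 2 and 4.47% of ON 3, and at most 0.00353% elsewhere. Results for the members are therefore also given without CT 4, while those for the marker lists are given only with it.

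In saline spleen most members were abundant. The core genes had mean levels from 20.7 FPKM (Psmb7) to 73.8 FPKM (Psma6) and the regulatory particle genes from 13.5 (Psmd11) to 61.3 (Psmc5). FPKM is scaled by gene length, so these levels can be set side by side. The highest member was Psme3, which encodes the nuclear cap PA28 gamma, at 97.6 ± 57.6 (SD, n = 5), a mean that CT 4 raised: the saline median was 73.9. Next came Psme1 at 76.5 ± 8.88 (SD, n = 5), Psma6 at 73.8 ± 7.14 (SD, n = 5) and Psmb4 at 72.0 ± 14.8 (SD, n = 5). These 4 neighbours in the order differed by less than 1 SD from one to the next. Among the assembly chaperones Psmg4 had the highest saline mean, 43.0 ± 3.07 (SD, n = 5) and Psmg3, the partner of Psmg4 in a chaperone pair, the lowest, 3.66 ± 1.88 (SD, n = 5). The germ-cell subunit Psma8 had 8 to 33 reads per library and the thymic subunit Psmb11 0 to 2, and these 2 members did not pass the filter of 1 FPKM in at least 5 libraries. The other 46 were above 1 FPKM in every one of the 26 libraries, the lowest value being 1.50 for Psmg3 in CT 4.

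OVA against saline asked which members differed after the allergen. In OVA spleens 3 members were lower by limma's test at an adjusted p under 0.05: Psma5 of the alpha ring, the chaperone Psmg4 and the cap subunit Psme2. None was higher. Of all 15672 genes tested 340 were called (2.17%), 217 of them lower (1.38%). With voom on the recovered reads 287 genes and the same 3 members were called. Most members that missed the threshold also had negative values. The log2 difference was negative for 44 of 46 members, against 48.3% of all genes, with a median of -0.25 against 0.01. At an unadjusted p under 0.05, 22 members were lower and 0 higher, against 8.67% and 7.63% of all genes. By role, 10 of 14 core genes and 7 of 17 regulatory particle genes were lower at that unadjusted level, with medians of -0.33 and -0.22. Members share the libraries and are not independent, so such counts are not separate results. Without CT 4 no member passed the adjusted threshold, while 369 of all genes did (2.35%). Of the 46 differences 40 were then negative, with a median of -0.20 (core -0.27, regulatory particle -0.10). At an unadjusted p under 0.05, 16 members were lower and 1 higher without CT 4, against 11.1% and 8.43% of all genes. The 6 positive differences were then those of Psme3 (0.23), Psme4 (0.30), Psmd5 (0.13), Psmd11 (0.06), Psmf1 (0.02) and Psmc6 (0.01). No member passed without CT 1, CT 5 or ON 1 either, nor without the 3 libraries with pancreatic reads (median -0.25, 23 lower at an unadjusted p under 0.05), while 9 passed without OS 3. In a sample of whole tissue fewer cells of a type and less RNA per cell cannot be told apart.

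**Figure D1:**
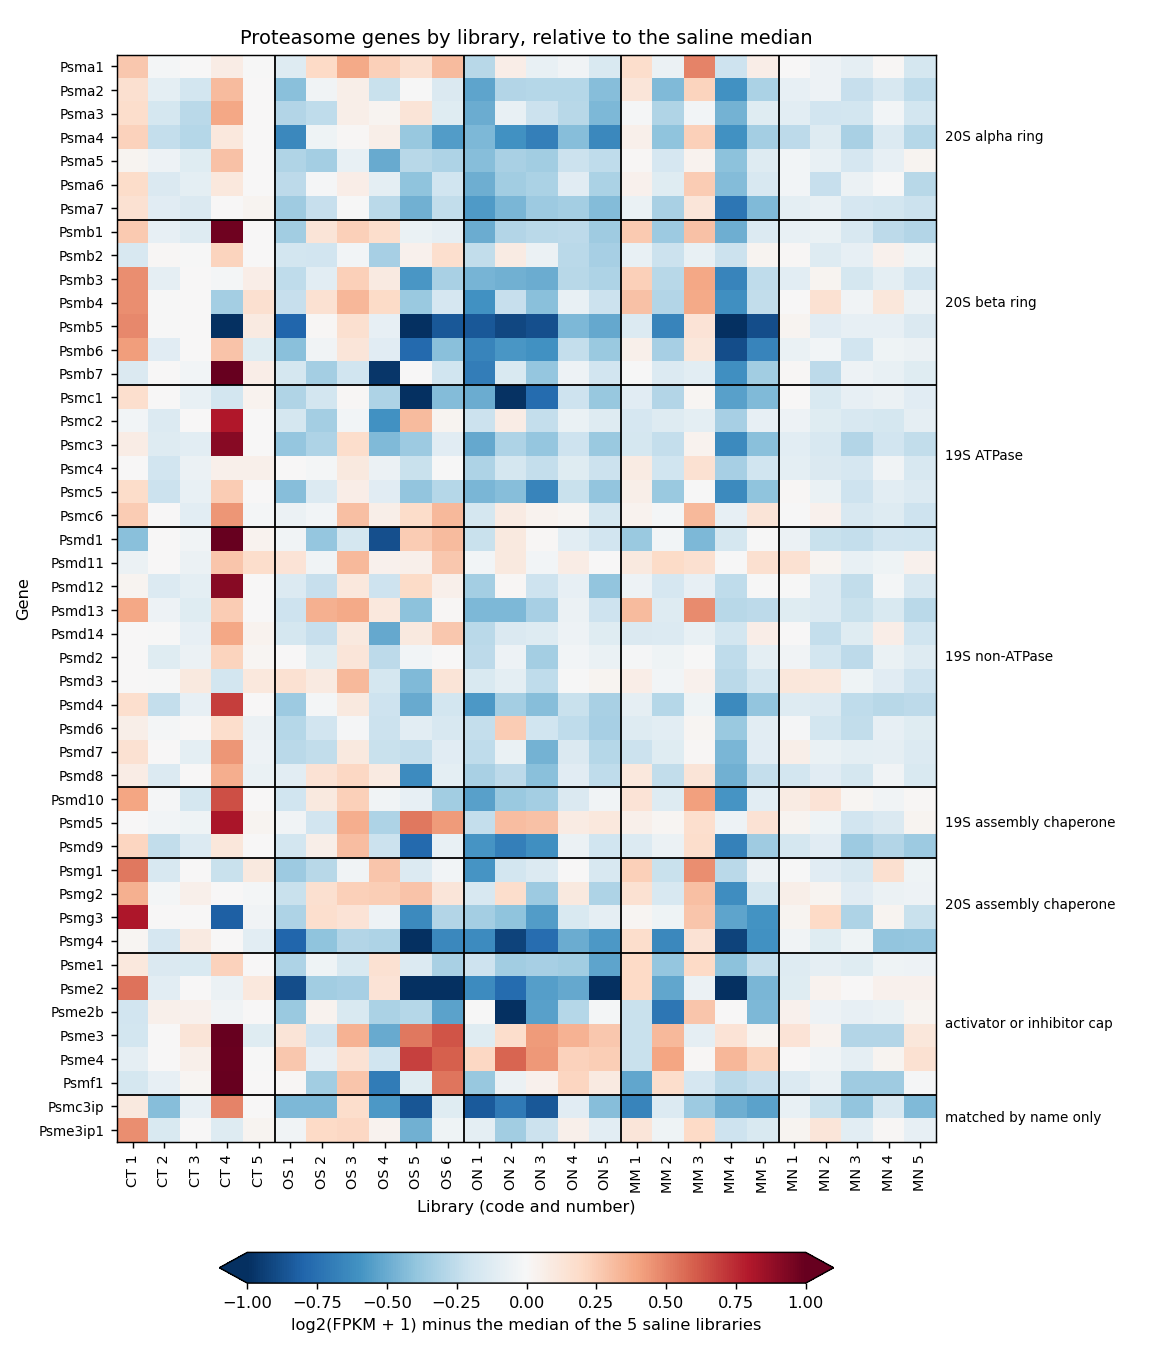
Each row is 1 of the 46 members tested, grouped by role, and each column 1 of the 26 libraries. Colour is log2(FPKM + 1) minus the median of the 5 saline libraries, capped at 1 in either direction. In ON 1 to ON 5, 45, 34, 40, 37 and 40 of the 46 members lie below 0. Saline libraries vary widely, with 10 in CT 4 but most members below 0 in some others. This count alone therefore does not separate ON from saline.

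**Figure D2:**
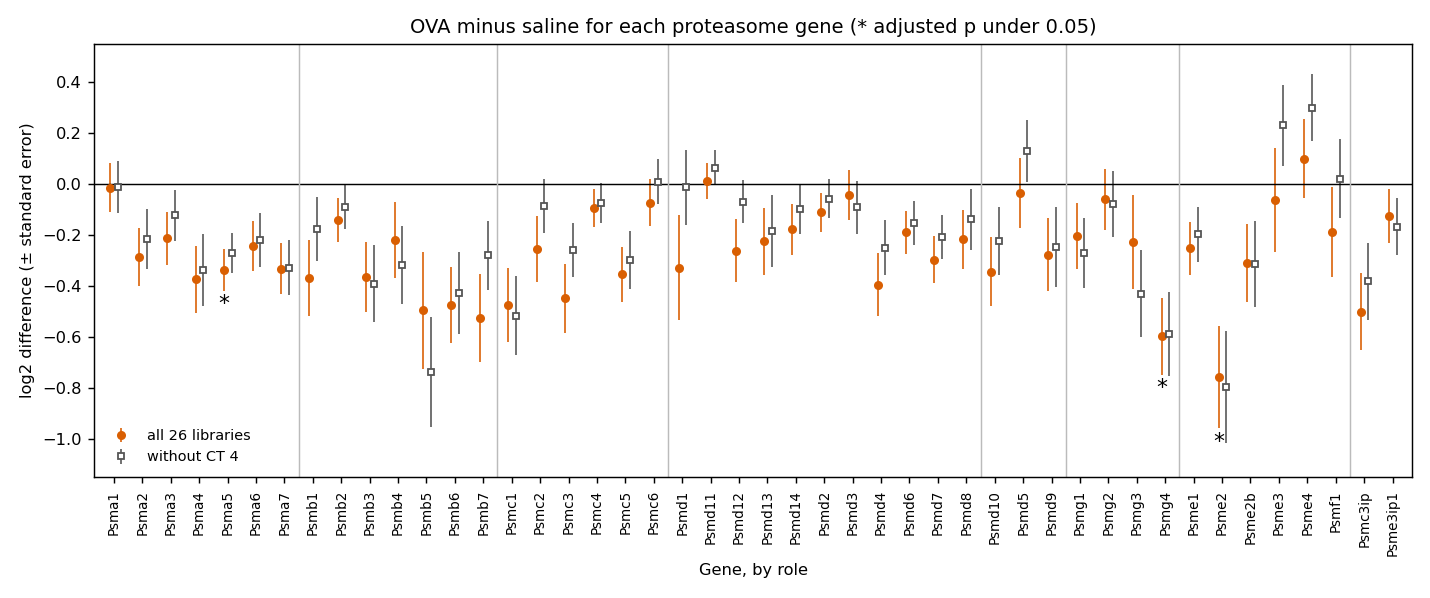
Points are the log2 difference of OVA minus saline for each member, with the standard error, in the fit of all 26 libraries (filled) and without CT 4 (open). Filled points lie below 0 for 44 of 46 members, stars mark the 3 with an adjusted p under 0.05, and regulatory particle genes such as Psmd1 and Psmc2 move towards 0 without CT 4.

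The alpha ring forms the gate of the core. Psma5 (ENSMUSG00000068749, chromosome 3, 108164242 to 108187290, plus strand in the deposited table, whose build is not named) had FPKM of 49.2, 46.5, 44.1, 59.2 and 48.2 in CT 1 to CT 5, and 35.6, 38.4, 37.7, 41.5 and 40.3 in ON 1 to ON 5, with 33.7, 38.8 and 45.7 as the lowest, median and highest of the 6 OS libraries. Of the 11 OVA libraries 10 were under the saline minimum, and OS 3 alone reached into the saline range. Its log2 difference was -0.34 ± 0.08 (SE, adjusted p = 0.0291), from 49.5 ± 5.79 (SD, n = 5) in saline to 39.1 ± 3.85 (SD, n = 6) in OS and 38.7 ± 2.30 (SD, n = 5) in ON. It was also the 1 member called in OS against CT (-0.33 ± 0.09, adjusted p = 0.0472, where 2.99% of all genes were called). The call in OVA against saline ended in 8 of 36 alternative analyses and that in OS against CT in 26 of 36. CT 4 is its highest saline value, and without it the OVA difference was -0.27 with an adjusted p of 0.0693. A pseudogene copy, Psma5-ps, had up to 6.82 FPKM, so the split of reads between the 2 genes is uncertain. Psma7 had FPKM of 51.5, 42.7, 41.7, 46.3 and 47.1 in CT 1 to CT 5, and 31.0, 33.4, 35.7, 36.3 and 33.9 in ON 1 to ON 5, with 32.8, 38.5 and 46.1 as the lowest, median and highest of the 6 OS libraries. Its ON values were all below saline, with -0.42 ± 0.12 in ON against CT (adjusted p = 0.0971). Psma6, the most abundant alpha gene, had 83.2, 65.9, 68.3, 78.7 and 73.1 in CT 1 to CT 5, and 52.0, 57.4, 58.6, 67.3 and 58.5 in ON 1 to ON 5, with 55.1, 65.8 and 76.4 as the lowest, median and highest of the 6 OS libraries, and 4 of 5 ON libraries were below the lowest saline value. The other alpha genes had OVA differences of -0.37 (Psma4), -0.28 (Psma2), -0.21 (Psma3) and -0.01 (Psma1), none past the threshold. Psma1 lay nearest to 0, with a mean of 42.7 FPKM in OS against 38.9 in saline.

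The beta ring carries the protease sites, caspase-like in Psmb6, trypsin-like in Psmb7 and chymotrypsin-like in Psmb5. Its 7 genes were all below 0 in OVA against saline, 5 at an unadjusted p under 0.05, and none passed the adjusted threshold. Psmb6 had FPKM of 55.8, 38.3, 41.6, 51.0 and 38.2 in CT 1 to CT 5, and 25.9, 27.5, 27.1, 35.1 and 32.0 in ON 1 to ON 5, with 23.8, 34.7 and 45.2 as the lowest, median and highest of the 6 OS libraries. All ON libraries were below all saline libraries while OS 2, OS 3 and OS 4 overlapped saline. The difference was -0.47 ± 0.15 (adjusted p = 0.094). Psmb7 (-0.52, adjusted p = 0.109) had its highest library in CT 4, and without it the difference was -0.28. For Psmb5 CT 4 was the lowest saline library instead, and the difference went from -0.49 to -0.74 (adjusted p = 0.0721) without it. Psmb1, a structural beta gene, had 40.5, 31.8, 30.7, 67.1 and 33.7 in CT 1 to CT 5, and 23.6, 27.3, 27.8, 27.9 and 26.2 in ON 1 to ON 5, with 26.2, 34.6 and 40.0 as the lowest, median and highest of the 6 OS libraries. The saline group again spans a wide range through CT 4, and without it the difference went from -0.37 to -0.18. Psmb4, the most abundant beta gene, had 94.3, 67.9, 68.1, 53.7 and 76.0 in CT 1 to CT 5, and 44.4, 57.8, 50.7, 64.6 and 58.6 in ON 1 to ON 5, with 52.3, 68.2 and 86.0 as the lowest, median and highest of the 6 OS libraries, with broad overlap of OS and saline (-0.22 ± 0.15, adjusted p = 0.509). Psmb3 (-0.36) and Psmb2 (-0.14) did not pass either.

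The 6 ATPases unfold substrates. Psmc1, Psmc3 and Psmc5 had the larger OVA differences of the ring, -0.47 ± 0.14, -0.45 ± 0.14 and -0.35 ± 0.11, with adjusted p of 0.0833, 0.0809 and 0.0841, and Psmc2, Psmc4 and Psmc6 had -0.25, -0.09 and -0.07. Psmc5 had FPKM of 67.8, 51.3, 56.6, 71.1 and 59.6 in CT 1 to CT 5, and 43.1, 44.1, 37.3, 50.9 and 45.1 in ON 1 to ON 5, with 44.0, 51.4 and 62.3 as the lowest, median and highest of the 6 OS libraries. Every ON library was below every saline library, and 3 of 6 OS libraries were. Psmc1 had 65.1, 57.7, 54.7, 50.8 and 59.0 in CT 1 to CT 5, and 40.7, 28.5, 33.4, 49.99 and 44.0 in ON 1 to ON 5, with 24.8, 46.6 and 58.2 as the lowest, median and highest of the 6 OS libraries. Its ON values were likewise all below saline, as were 5 of 6 OS values, though OS 2 (50.82) lay only just under CT 4 (50.83). OS 5 and ON 2 were the lowest, and ON 2 is a library with pancreatic reads. CT 4 was the lowest saline library of Psmc1, so that without it the difference was -0.52, while that of Psmc3 shrank from -0.45 to -0.26.

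The non-ATPase genes encode the lid, the scaffold and the ubiquitin receptors. Of 11, 10 were below 0 in OVA against saline, 4 at an unadjusted p under 0.05, and none passed the adjusted threshold. Psmd4, a ubiquitin receptor, had FPKM of 53.0, 39.8, 44.5, 76.6 and 47.1 in CT 1 to CT 5, and 31.3, 36.9, 34.8, 40.2 and 37.5 in ON 1 to ON 5, with 33.0, 41.0 and 50.5 as the lowest, median and highest of the 6 OS libraries. The ON values were low, with 4 of 5 under the saline minimum, and the difference was -0.39 ± 0.12 (adjusted p = 0.0907), or -0.25 without CT 4. Psmd7, a lid subunit that pairs with the deubiquitinase Psmd14, had 43.2, 38.8, 36.2, 53.0 and 37.5 in CT 1 to CT 5, and 32.4, 36.9, 27.6, 34.9 and 31.7 in ON 1 to ON 5, with 32.0, 32.9 and 41.5 as the lowest, median and highest of the 6 OS libraries, with -0.30 ± 0.09 (adjusted p = 0.0885). In OS 5 of 6 libraries and in ON 4 of 5 were below the lowest saline value, and without CT 4 the difference was -0.21. Psmd2, a scaffold subunit with the highest mean of this class over all libraries, had 50.1, 45.8, 47.9, 58.7 and 50.8 in CT 1 to CT 5, and 41.7, 48.4, 39.3, 49.0 and 47.8 in ON 1 to ON 5, with 41.5, 49.6 and 54.4 as the lowest, median and highest of the 6 OS libraries, and OS 4, ON 1 and ON 3 were below the lowest saline value (-0.11). The remaining values ran from -0.33 for Psmd1, which went to -0.01 without CT 4, to 0.01 for Psmd11.

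Among the assembly chaperones Psmg4 differed most. Psmg4 (ENSMUSG00000071451, chromosome 13, 34346947 to 34362156, plus strand) has the shortest model of all members, 555 bases, with 140 to 482 reads per library, and had FPKM of 44.4, 39.0, 46.7, 43.9 and 40.8 in CT 1 to CT 5, and 28.0, 22.7, 25.4, 30.8 and 29.2 in ON 1 to ON 5, with 21.0, 30.3 and 35.5 as the lowest, median and highest of the 6 OS libraries. It was the 1 member in which all 11 OVA libraries lay below all 5 saline libraries, a separation that 0.581% of all genes showed in that direction and 0.198% in the other. The difference was -0.60 ± 0.15 (adjusted p = 0.0373), and -0.59 without CT 4 (adjusted p = 0.0593), where CT 4 is a middle value. The call ended in 14 of 36 alternative analyses. Psmg2 had 21.1, 16.0, 16.9, 16.3 and 16.0 in CT 1 to CT 5, and 14.5, 18.6, 12.5, 17.5 and 12.99 in ON 1 to ON 5, with 13.8, 18.8 and 20.0 as the lowest, median and highest of the 6 OS libraries, and OS 1, ON 1, ON 3 and ON 5 were below the lowest saline value (-0.06), and Psmg1 and Psmg3 had -0.20 and -0.23. Of the 19S chaperones, Psmd10 (gankyrin) had 21.9, 16.3, 14.5, 26.4 and 16.5 in CT 1 to CT 5, and 10.99, 12.5, 12.8, 14.8 and 16.0 in ON 1 to ON 5, with 12.7, 15.7 and 19.6 as the lowest, median and highest of the 6 OS libraries, and the difference was -0.34 ± 0.14 (adjusted p = 0.197). Psmd9 had 6.20, 4.24, 4.66, 5.74 and 5.22 in CT 1 to CT 5, and 3.12, 2.86, 3.07, 4.97 and 4.42 in ON 1 to ON 5, with 2.64, 4.69 and 6.70 as the lowest, median and highest of the 6 OS libraries, low levels at which ON 1, ON 2 and ON 3 were below saline and ON 4 and ON 5 within it. Psmd5 had -0.03.

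The caps split by gene. Psme2 (ENSMUSG00000079197, chromosome 14, 55824898 to 55828570, minus strand), a subunit of the interferon-inducible cap, had FPKM of 71.4, 45.1, 48.6, 46.6 and 52.4 in CT 1 to CT 5, and 31.2, 28.1, 32.9, 33.8 and 21.5 in ON 1 to ON 5, with 21.1, 31.9 and 53.5 as the lowest, median and highest of the 6 OS libraries. All OVA libraries but OS 4 were under the saline minimum. The difference was -0.76 ± 0.20 (adjusted p = 0.0471), the largest of the 46 members in size, from 52.8 ± 10.7 (SD, n = 5) in saline to 33.4 ± 12.3 (SD, n = 6) in OS and 29.5 ± 4.99 (SD, n = 5) in ON. Without CT 4 it was -0.80 with an adjusted p of 0.0543. The call ended in 24 of 36 alternative analyses, among them those without any 1 of the MN libraries. A near copy with a single exon, Psme2b, had -0.31, and reads of the pair may be shared, so both values are uncertain. Psme1, its partner in the cap, had 81.6, 68.5, 68.0, 88.8 and 75.7 in CT 1 to CT 5, and 65.4, 59.4, 60.0, 59.4 and 52.2 in ON 1 to ON 5, with 60.3, 68.5 and 84.4 as the lowest, median and highest of the 6 OS libraries. The ON values were all below saline and the OS values overlapped it (-0.25 ± 0.10, adjusted p = 0.215). The FPKM ratio of Psme2 to Psme1 was 0.693 ± 0.126 (SD, n = 5) in saline, 0.474 ± 0.121 (n = 6) in OS, 0.496 ± 0.0637 (n = 5) in ON, 0.527 ± 0.118 in MM and 0.684 ± 0.0225 in MN. These ratios are descriptions, and all ON libraries lay below all saline libraries other than CT 4 (0.524). Psme3, of the nuclear cap, had 65.1, 73.9, 80.7, 199.98 and 68.0 in CT 1 to CT 5, and 68.0, 83.6, 99.4, 94.2 and 89.4 in ON 1 to ON 5, with 51.9, 87.7 and 115 as the lowest, median and highest of the 6 OS libraries. CT 4 was the highest of all, and 4 OS and 4 ON libraries were above the other saline libraries (-0.06, and 0.23 without CT 4). The inhibitor Psmf1 had -0.19 and Psme4, of the nuclear cap PA200, 0.10.

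**Figure D3:**
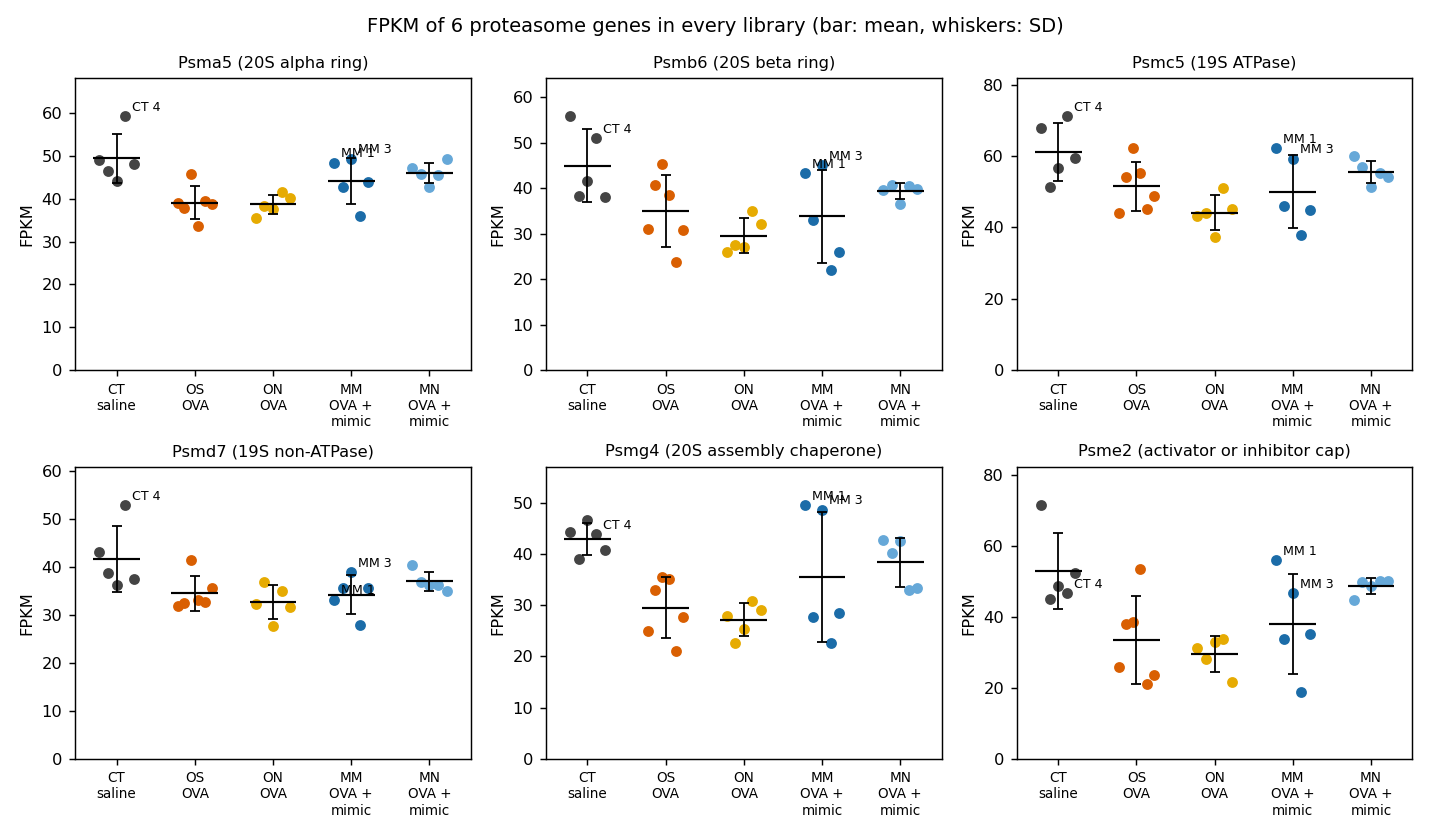
Each point is the FPKM of 1 library, by code, with the mean (bar) and SD (whiskers), and 1 member is shown for each of 6 roles. Psmg4 separates OVA from saline in all 11 libraries, and in MM the libraries MM 1 and MM 3 lie above MM 2, MM 4 and MM 5 for Psmb6, Psmc5, Psmg4 and Psme2.

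The 2 OVA codes were also compared with saline one by one. In ON against CT no member passed limma's adjusted threshold (nor with voom on recovered reads), while 80 of all genes did (0.51%), but 45 of 46 differences were negative (47.3% of all genes), with a median of -0.34, and 28 were lower at an unadjusted p under 0.05 (8.47% of all genes) with 0 higher (5.16%). All 5 ON libraries lay below all 5 saline libraries for 13 members, against 3.39% of all genes: Psma2, Psma4, Psma5, Psma7, Psmb1, Psmb3 and Psmb6 of the core, Psmc1, Psmc3 and Psmc5 of the regulatory particle, and Psmg4, Psme1 and Psme2. No member was above in all (1.19% of all genes). Without CT 4 the count was 16, against 7.68% of all genes, 9 of 14 core and 3 of 17 regulatory particle genes. In OS against CT the median was -0.17, 40 were negative (50% of all genes), and 12 were lower at an unadjusted p under 0.05 (7.66%) with 0 higher (8.66%). In OS, Psmg4 was the 1 member whose libraries were all below saline (0.951% of all genes), and 0 were all above (1.4%). Without CT 4 the OS median was -0.10, 36 differences were negative, and 5 members were lower at an unadjusted p under 0.05, against 10.2% of all genes. Psma5 was then no longer called in OS, while 566 of all genes were (3.61%). In ON without CT 4 the median was -0.29, 40 were negative, and 24 were lower at that level, against 10.4% of all genes. The 2 comparisons share the saline libraries. The test between the codes, OS against ON, called no member, with limma or voom (29 of all genes, 0.185%, with limma), with 4 members higher in OS at an unadjusted p under 0.05 (5.74% of all genes), 0 lower (4.84%) and a median of 0.16. Of all genes 0.44% lay wholly higher in OS and 0.319% wholly lower, and no member did either.

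The summary of the core and of the regulatory particle, the mean log2(FPKM + 1) of their 14 and 17 genes, is a description with no test. The core level was 5.39 ± 0.14 (SD, n = 5) in CT, 5.18 ± 0.16 (n = 6) in OS, 4.98 ± 0.10 (n = 5) in ON, 5.17 ± 0.30 (n = 5) in MM and 5.24 ± 0.05 (n = 5) in MN. All ON libraries were below the lowest saline library, as were 4 of OS, 3 of MM and 2 of MN. The regulatory particle level was 5.04 ± 0.21, 4.88 ± 0.14, 4.75 ± 0.09, 4.84 ± 0.14 and 4.85 ± 0.06 in the same order, and again every ON library was below the saline minimum. The MM group had the widest spread of the core level, from 4.78 in MM 4 to 5.52 in MM 3. The core minus the regulatory particle was 0.35 ± 0.14 in CT, with 0.53, 0.38, 0.34, 0.13 and 0.38 in CT 1 to CT 5. It was 0.31 ± 0.13 in OS, from 0.15 to 0.47, and 0.23 ± 0.04 in ON, with 0.17, 0.21, 0.29, 0.24 and 0.24 in ON 1 to ON 5. In MM it was 0.32 ± 0.16, with 0.49, 0.22, 0.52, 0.15 and 0.25, and in MN 0.39 ± 0.03, with 0.35, 0.40, 0.41, 0.40 and 0.38. Every ON library was below the 4 saline libraries other than CT 4, which had the lowest value of the 26. Ribosomal protein genes took 5.77% to 7.63% of the reads in saline, 3.74% to 6.47% in OS, 2.72% to 4.40% in ON, 7.06% and 7.54% in MM 1 and MM 3, 3.36% to 4.80% in the other MM libraries and 5.12% to 6.03% in MN. The 2.72% is ON 2 and the 3.36% is MM 2, where 29.3% and 14.8% of the reads were pancreatic, so these shares are not of spleen reads alone. The 7 erythroid markers, all in the table, summed to 36629.7 to 67641.0 FPKM in CT, 20731.3 to 53807.4 in OS, 13697.7 to 38595.3 in ON, 19834.0 to 30584.5 in MM and 27570.9 to 66825.0 in MN. Of these 7, 6 were below 0 in OVA against saline, 2 at an unadjusted p under 0.05, with a list median of -0.32 and none called. The 8 neutrophil markers, all in the table, summed to 1485 to 8145 FPKM in CT, 2117 to 7253 in OS, 2470 to 5931 in ON, 913 to 4812 in MM and 1128 to 7952 in MN, so every group overlapped saline. All 8 were above 0 in OVA against saline, 2 at an unadjusted p under 0.05, with a median of 0.54 and none called. The 5 adipocyte markers summed to 1.27 to 43.6 FPKM in CT, 1.78 to 18.6 in OS, 1.11 to 23.2 in ON, 2.39 to 9.32 in MM and 1.40 to 20.7 in MN, with Plin1 and Lep near 0 in most libraries. Of the 3 that passed the filter all were below 0 in OVA against saline, 1 at an unadjusted p under 0.05, with a median of -0.68 and none called. The 7 proliferation markers summed to 302 to 1024 FPKM in CT, with the highest in CT 4. They summed to 213 to 585 in OS, 233 to 390 in ON, 213 to 414 in MM and 222 to 339 in MN. All 7 were below 0 in OVA against saline, with a median of -0.10, 0 at an unadjusted p under 0.05 and none called. The median of the sums went the other way, 326 FPKM in saline and 370 in OVA. CT 4 was also the highest saline library for the erythroid sum and the lowest for the neutrophil sum. The marker lists were not compared without CT 4. The part of the ribosomal genes and of these marker lists in the result was not tested.

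**Figure D4:**
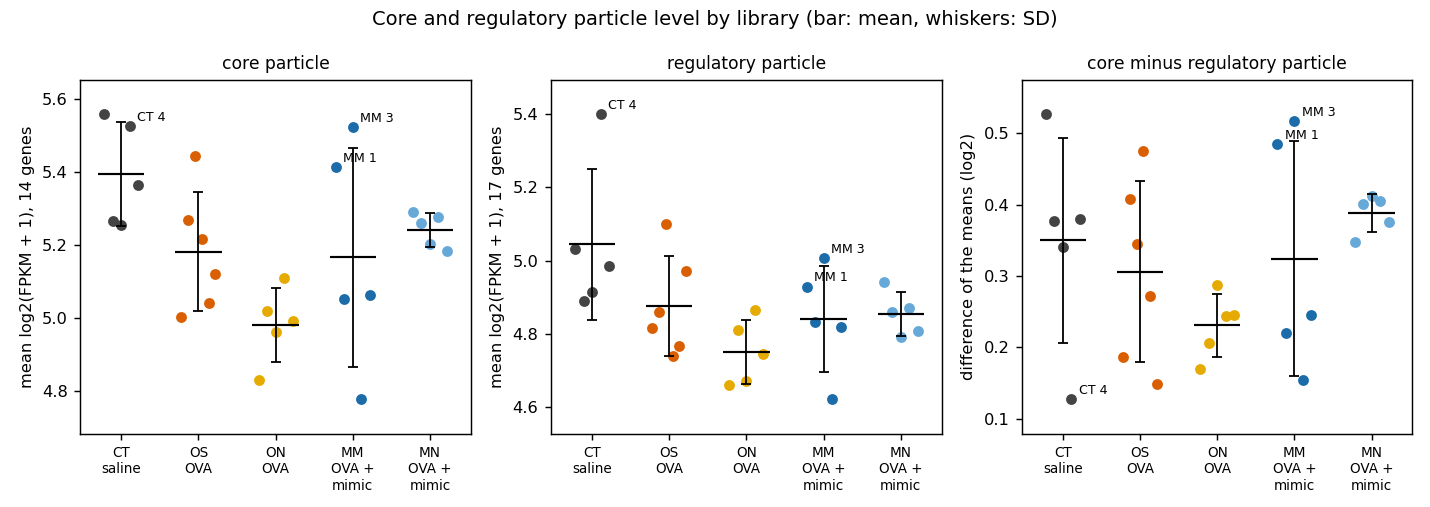
Points are libraries by code, with the mean (bar) and SD (whiskers): the core level (14 genes), the regulatory particle level (17 genes) and their difference, all on the log2(FPKM + 1) scale, whose axes do not start at 0. ON lies below saline in the first and second panels, MM splits into MM 1 and MM 3 above the rest, and CT 4 is the highest regulatory particle value and the lowest difference.

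The mimic comparisons asked whether members differed when miR-676-3p mimic was added to OVA. In OVA with mimic against saline limma called no member and no gene at all (0.0%). The median was -0.18, 45 of 46 were negative (48.4% of all genes), and 7 were lower at an unadjusted p under 0.05 (3.64% of all genes), with 0 higher (3.08%). No member had groups that did not overlap (0.0191% of all genes lower, 0.0128% higher). Without CT 4 no member was lower at an unadjusted p under 0.05 (1.76% of all genes), and the median was -0.12. By code, 9 members were lower at that level in MM (5.12% of all genes) and 3 in MN (1.38%), and 0 higher in either (4.65% and 1.5%), with medians of -0.20 and -0.16 and no adjusted call of a member in either (47 of all genes, 0.3%, in MM and 0 in MN). No member lay wholly below saline in MM (0.804% of all genes) or MN (0.351%), nor wholly above (1.2% and 0.268%). In OVA with mimic against OVA no member or gene was called either (0.0%), and 4 members were higher at an unadjusted p under 0.05 (5.4% of all genes) and 0 lower (4.74%). They were Psma5 (0.21 ± 0.07), Psmg4 (0.35 ± 0.12), Psme2 (0.44 ± 0.16) and Psmc1 (0.31 ± 0.12). Their adjusted p were 0.299, 0.355, 0.378 and 0.387. Psma5 had FPKM of 48.5, 42.7, 49.3, 36.0 and 44.0 in MM 1 to MM 5 and 47.2, 45.8, 42.7, 45.6 and 49.2 in MN 1 to MN 5. Psme2 had 55.9, 33.7, 46.6, 18.7 and 35.1 in MM and 44.7, 49.9, 48.8, 50.1 and 50.1 in MN. Psmg4 had 49.6, 27.8, 48.7, 22.6 and 28.6 and 42.7, 40.3, 42.6, 33.0 and 33.4. For Psma5 and Psme2 MM 1 and MM 3 lay within the saline range and for Psmg4 above it, while MM 2, MM 4 and MM 5 were below the lowest saline library for all 3 genes. In MN, MN 3 for Psma5, MN 1 for Psme2 and MN 4 and MN 5 for Psmg4 were below it and the others were not. Psmc5 repeats the split, with 62.2, 46.0, 59.3, 38.0 and 44.9 in MM and 60.1, 56.9, 51.4, 55.3 and 54.0 in MN. Voom called no member in any comparison with the mimic. The direct test, MM against MN, called no member (27 of all genes, 0.172%), with 0 at an unadjusted p under 0.05 in either direction (3.27% of all genes higher, 3.99% lower) and a median of -0.04. Of all genes 2.02% lay wholly higher in MM and 1.91% wholly lower, and no member did. The mimic groups and the OVA groups share the same saline reference wherever saline is named.

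The differences were also set against gene length. Across the 46 members the Spearman correlation of the gene length in the table with the log2 difference was 0.44 for OVA against saline, -0.11 for OVA with mimic against saline and -0.71 for OVA with mimic against OVA. Across 11969 protein-coding genes these were 0.25, 0.04 and -0.31. For the codes against CT it was 0.40 (OS), 0.46 (ON), 0.16 (MM) and -0.47 (MN). It was -0.21 for OS against ON and 0.55 for MM against MN. The sign depends on which group is the reference, and OVA enters OVA against saline and OVA with mimic against OVA with opposite signs. The correlations are descriptions across genes, which share the libraries and are not independent. For OVA against saline and OVA with mimic against OVA the correlation was 0.50 and -0.82 within the regulatory particle (17 genes) and 0.02 and -0.56 within the core (14 genes). Without CT 4 the value for OVA against saline was 0.61 across members, 0.71 in the regulatory particle and 0.35 in the core. The 4 shortest members tested, Psmg4 (555 bases), Psme2b (837), Psmb5 (899) and Psmb2 (1204), had OVA differences of -0.60, -0.31, -0.49 and -0.14. The 4 longest, Psme4 (8382), Psmd1 (7265), Psmd9 (7248) and Psmd5 (7230), had 0.10, -0.33, -0.28 and -0.03, and that of Psmd1 moved towards 0 without CT 4. Core genes are shorter than regulatory genes, with medians of 2335 and 2820 bases, against 4372 for protein-coding genes. The part of length in the core results was not tested.

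**Figure D5:**
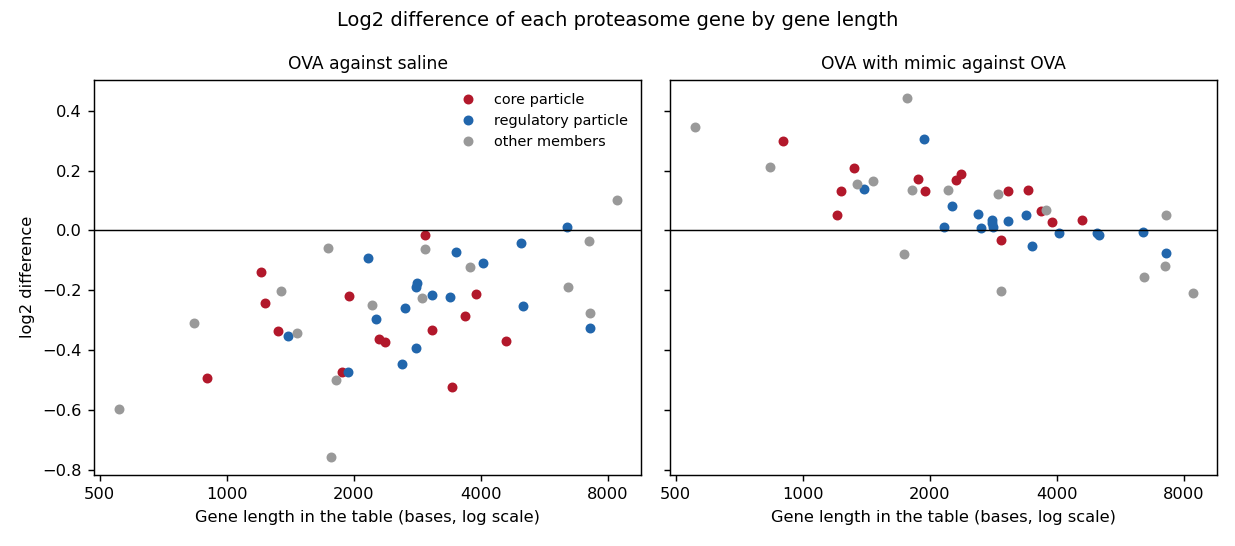
Each point is 1 of the 46 members, placed by gene length (log scale) and log2 difference, with core, regulatory particle and other members in separate colours. The Spearman correlation was 0.44 in OVA against saline (left) and -0.71 in OVA with mimic against OVA (right), and members of like length scatter widely in both.

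Other genes of the pathway were read from lists of genes by role. Sem1, a small 19S subunit, fell in OVA against saline, with -0.76 ± 0.19 (SE, adjusted p = 0.0395), and was not called without CT 4 (adjusted p = 0.0846). That call ended in 14 of 36 alternative analyses. Of the 4 genes in the list that holds Sem1, 2 were below 0 and 2 above, with a list median of -0.10. Of 4 regulators of proteasome gene transcription 0 passed, with a list median of -0.09. None of 10 deubiquitinase, ligase and shuttle genes passed, with a list median of 0.00 against 0.01 for all genes. The immunoproteasome genes had -0.63 ± 0.21 (Psmb8, adjusted p = 0.117), -0.22 ± 0.18 (Psmb9) and -0.23 ± 0.19 (Psmb10), and Psmb8 passed without CT 4 (-0.89, adjusted p = 0.013). Set against the standard gene it replaces, on the FPKM scale, Psmb8 over Psmb5 was 1.07 to 1.25 in saline, 0.621 to 1.41 in OS, 0.876 to 1.25 in ON, 1.01 to 1.40 in MM and 1.19 to 1.32 in MN. Psmb10 over Psmb7 was 3.13 to 4.67 in saline without CT 4 (0.671 in CT 4) and 2.81 to 4.42 in ON, and Psmb9 over Psmb6 was 0.756 to 0.894 (0.305 in CT 4) and 0.693 to 0.987. In OS, MM and MN, Psmb10 over Psmb7 was 1.73 to 7.23, 3.01 to 4.40 and 3.16 to 4.32. Psmb9 over Psmb6 was 0.653 to 1.02, 0.765 to 1.03 and 0.816 to 0.901 in the same order. Each of these ranges overlaps its saline range without CT 4, and those of OS reach beyond it at both ends.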

How the data were processed

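Gene expression was deposited as FPKM, with gene names and lengths in the same table, and per the submitters' processing notes edgeR 3.24.3, HISAT2 2.0.5, featureCounts 1.5.0-p3, CASAVA, DESeq2 1.20.0 and StringTie 1.3.3b were used, with no role stated. No build is given in the sources used here, and 2.80% of 52083 gene identifiers had the coordinates of GRCm38. Divided by the worth of 1 read, 100% of the values came out as whole reads (tolerance 0.05). Genes with at least 1 FPKM in at least 5 of 26 libraries (15672) were tested on log2(FPKM + 1), which understates changes of low genes, with limma 3.58.1 in R 4.3.3, 1 mean per code, a variance trend and empirical Bayes moderation. The OVA level is the average of codes OS and ON, and the mimic level the average of codes MM and MN. P-values were adjusted by Benjamini and Hochberg over all genes tested, with a threshold of 0.05. The fit was checked on simulated data with independent genes and larger changes than those of the members, so the check does not cover changes of their size. Members shown library by library were, in each role, the 2 with the smallest unadjusted p in any of 9 comparisons and the 1 with the highest mean, plus those called, and every other member could be named. Because a small p chose them, their values are descriptions beside the tests over all genes. The members and lists were chosen with earlier results of these data known. Alternatives were another pseudocount, no filter, a replicate block, median-of-ratios scaling, library weights, voom on recovered reads, no trend, the compared libraries alone, and libraries left out. Some results for genes outside the members are not reported here.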

Additional observations from a re-analysis of the deposited data

Results flagged for a closer look

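Of 105 groups examined over the 18 members shown by library and the particle levels, 8 had a library far from the others of its code, where chance alone gives about 1 in 20. Of these 8, 3 were in CT 4: Psme3 at 199.98 FPKM and Psmb1 at 67.1 FPKM, each the highest saline value, and the regulatory particle level at 5.40 on the log2 scale. In CT 1 the highest saline values of Psme2 (71.4 FPKM) and Psmg2 (21.1 FPKM) stood apart. The lowest values of their codes were those of Psmg2 in OS 1 (13.8 FPKM), Psmb6 in MN 3 (36.4 FPKM) and Psme2 in MN 1 (44.7 FPKM). CT 4 also had the highest mitochondrial share of reads, 6.62%, and its part in these values was not tested.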

How the results depend on the processing

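The 3 members called in OVA against saline (340 of all genes) became 1 with no filter (150 of all 35291 genes), 0 with the replicate block (184), 0 without the libraries with pancreatic reads (108), 6 with library weights (1435) and 1 with the compared libraries alone (117), where brackets give the count over all genes. They became 0 to 9 when 1 library was left out (0 without CT 1, CT 4, CT 5 or ON 1, and 9 without OS 3, where 484 of all genes were called). The 1 member in OS against CT (469 of all genes) became 0 with no filter (283), the replicate block (306), the compared libraries alone (88) or no pancreatic libraries (562), and 0 to 2 with 1 library left out. For ON against CT the count of 0 (80 of all genes) became 8 with library weights (859), 1 with the compared libraries alone (49) and 0 to 2 with 1 library left out, and for MM against CT (47 of all genes) it became 1 with weights (518). Leaving out both the pancreatic libraries and CT 4, an alternative chosen after seeing the data, gave 0 in OVA against saline (128 of all genes) and in OS against CT (836). The other 5 comparisons stayed at 0 in 36 of 36 alternatives. Of the differences followed through every alternative (Psma5, Psme2, Psmg4, Psmb5, Psmb7 and Psmc3 in OVA against saline, and Psmd1 in OVA with mimic against saline) none changed sign, while without CT 4 those of Psme3, Psmd5, Psmf1 and Psmc6 in OVA against saline did. The core minus the regulatory particle in MN moved from 0.39 to 0.50 with a median over genes. Of 50 same-numbered pairs of libraries 9 had a correlation of deviations over 0.1, with a range of -0.39 to 0.36. Pairs with different numbers were not compared, so these values cannot decide whether replicate numbers pair the libraries. The cause of these shifts was not tested. Among the subunits and chaperones tested, Psmg3 (58 to 311 reads per library), Psmg1 (145 to 355) and Psmg4 (140 to 482) had the lowest median reads.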
